A study of Mus musculus with 24 samples.

Results

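The genes described here are 39 mouse genes of the cell cycle and of proliferation, out of 28059 genes in a table of RNA sequencing values from pancreatic islets. They were chosen by name: proliferation markers, cyclins and their kinases, kinase inhibitors, replication and nucleotide synthesis genes, E2F factors, and genes of mitosis. All 39 are in the table. The unit of the table is RPKM, a read number corrected for gene length and library size. Of the 39 genes, 24 had at least 1 RPKM in at least 4 of 22 libraries and were tested, and the other 15 stayed below that level and are described by their values as low.

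The libraries came from cultured, handpicked islets of mice of mixed background aged 3 to 4 months and fell into 2 sets by the sample numbers in their titles. Set 1 held 4 libraries from mice with Pdx1.CreERT2, floxed Cop1, Etv1 and Etv5 on both alleles (fl/fl) and knocked-out Etv4 (Etv4ko/ko), below called Etv1/4/5 deletion, 3 with Cop1 fl/fl and Pdx1.CreERT2 (Cop1 deletion) and 3 with Cop1 fl/fl and no Cre listed (control). Set 2 held 4 libraries from mice with Pdx1.CreERT2, floxed Cop1 and Etv5 on both alleles and only 1 Etv4 allele knocked out (Etv4ko/+), below called Etv4/5 deletion, 4 Cop1 deletion libraries and 4 control libraries. COP1 is a ubiquitin ligase whose substrates include the ETS transcription factors ETV1, ETV4 and ETV5. All deletion groups carry both floxed Cop1 alleles and the Cre, and the controls carry the floxed alleles too, so no group is a wild type. The Pdx1 promoter drives CreERT2 in β cells and in other cells that use Pdx1, such as part of the δ cells, so the islets also hold cells in which no deletion is intended. CreERT2 needs tamoxifen, for which no treatment is given in the labels used here. The design text calls the replicates biological, but nothing ties each library to its own mouse or culture, so the p-values measure the spread between these libraries.

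In the cell cycle, D-type cyclins with CDK4 or CDK6, and then cyclin E with CDK2, phosphorylate the retinoblastoma protein and release E2F factors, which switch on the genes of DNA replication. Cyclin A, cyclin B and CDK1 then carry the cell into mitosis, and most of the genes of that phase are transcribed in dividing cells alone. Adult β cells divide rarely, and cyclin D2 and CDK4 are the D-type cyclin and kinase on which β cell mass in mice is known to depend.

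Several libraries stood apart. Cop1 itself had 0.719 to 1.04 RPKM in Etv1/4/5 deletion, 0.984 to 1.13 in Cop1 deletion and 1.22 to 1.55 in control libraries of set 1. The set 2 values were 0.77 to 0.856 RPKM in Etv4/5 deletion, 0.763 to 0.934 in Cop1 deletion and 1.43 to 1.87 in control libraries. Cop1 fell in Cop1 deletion of set 2 (log2 fold change -0.64, limma adjusted p = 0.00011), and in set 1 the value was -0.33 (adjusted p = 0.066). Esr1, part of which is fused to Cre in CreERT2, had 44 to 111 RPKM in every deletion library and 0.05 to 0.2 RPKM in 6 of 7 control libraries, but 99.1 RPKM in the library labelled set 1 control replicate 2. That library goes against its label. For the genes named here other than Cop1, the value without it is given where leaving it out changed a call or moved a called value by over 1.5 times. Its Cop1 level was 1.22 RPKM, against 1.53 and 1.55 RPKM in the other controls of set 1. The Cop1 change without that library is not given here. Etv4 RNA was higher, not lower, in the group labelled Etv4ko/ko. It had 0.927 to 1.53 RPKM in Etv1/4/5 deletion libraries, against 0.0551 to 0.0775 in Cop1 deletion and 0.0418 to 0.118 in control libraries. Limma called it higher (log2 fold changes 1.63, adjusted p = 3.9e-05, and 1.61, adjusted p = 7e-05). Values per gene do not show whether the RNA is that of an intact allele. Etv4 in set 2 had 0.911 ± 0.19 RPKM in Etv4/5 deletion, 0.947 ± 0.49 in Cop1 deletion and 0.532 ± 0.15 in control libraries (SD, n = 4 each). Etv1 had 4.89 to 5.61 RPKM in Etv1/4/5 deletion, 4.23 to 5.01 in Cop1 deletion and 5.67 to 7.2 in control libraries of set 1. Etv5 had 2.57 to 4.85 RPKM in Etv1/4/5 deletion, against 2.31 to 3.58 in Cop1 deletion, and 1.39 to 1.83 RPKM in Etv4/5 deletion, against 1.23 to 2.75 in Cop1 deletion and 2.93 to 6.99 in control libraries of set 2. It was lower than control in Cop1 deletion of set 2 too, by a log2 fold change of -1.13 (limma adjusted p = 0.012), or -0.90 (adjusted p = 0.13) without its replicates 2 and 3. No Etv gene was called lower in an Etv deletion group than in the Cop1 deletion group of its set, so the names of these groups rest on the labels alone. Summed over 10 lymphocyte markers, set 2 Cop1 deletion replicates 2 and 3 had 56.1 and 11.8 RPKM, against 1.65 to 2.29 in the other 10 libraries of set 2. In set 1, Xist RNA was at 32.7 RPKM in control replicate 3 and 10.4 RPKM in Cop1 deletion replicate 3. It was at 29.4 and 24.2 RPKM in Etv1/4/5 deletion replicates 3 and 4, and at most at 0.027 RPKM in the rest. These deletion libraries with Xist also held RNA of the Y-linked gene Ddx3y (16.6, 3.48 and 9.87 RPKM, in the same order). The part of sex in the set 1 values was not tested. Xist RNA was present in all 4 controls of set 2 but in only 2 libraries each of its Etv4/5 deletion and Cop1 deletion groups. The 2 Cop1 deletion libraries of set 2 without Xist are replicates 2 and 3, the same that held lymphocyte RNA, and they held RNA of the Y-linked gene Ddx3y (7.04 and 11.9 RPKM). Lymphocyte RNA and sex cannot be told apart in that group, and leaving out either kind of library removes the same Cop1 deletion libraries. Of 10 β cell markers, limma called 6 lower and 0 higher in Cop1 deletion of set 1 and 6 lower and 1 higher in set 2, among them Slc2a2, the glucose transporter GLUT2 (log2 fold changes -2.0 and -3.37), and Mafa, a β cell transcription factor (-1.95 and -3.65). The part of these marker changes in the results below was not tested.

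The islets held much RNA of the G1 genes and little of the mitotic ones. Ccnd2 (cyclin D2) was the highest member, with a lowest, median and highest value over the 22 libraries of 61.1, 133 and 207 RPKM. Cdk4, its kinase, had 55.6, 86.2 and 105 RPKM. Ccnd1 (cyclin D1) had a median of 47.7 RPKM and Cdkn1b (p27, an inhibitor of cyclin-CDK complexes) one of 26.6 RPKM. Ccnd3 (cyclin D3) followed at 12.7 RPKM, so 3 D-type cyclins, 1 of their kinases and 1 inhibitor were the 5 highest of the 39 members.

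The genes of DNA replication had medians of a few RPKM. Rrm1, the large subunit of ribonucleotide reductase, had a median of 6.77 RPKM, and Rrm2, its small subunit, had 1.38 RPKM. The MCM genes, which encode the replicative helicase, had medians from 1.35 RPKM (Mcm5) to 5.54 RPKM (Mcm6), and Pcna, the sliding clamp, had 4.27 RPKM. E2f1, an activating E2F factor, had a median of 3.78 RPKM and E2f2, its relative, 1.04 RPKM. Ccna2 (cyclin A2) and Ccne2 (cyclin E2) stood at 2.86 and 2.12 RPKM, Ezh2, a histone methyltransferase of the polycomb complex, at 2.39 RPKM and Aurka, the centrosomal Aurora kinase, at 1.99 RPKM. Tyms (thymidylate synthase) was just inside the threshold, with at least 1 RPKM in 6 libraries, and Cenpa, the centromeric histone, was just outside it, with at least 1 RPKM in 3 libraries and a median of 0.606 RPKM.

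Below 1 RPKM lay nearly all of the mitotic genes. The proliferation marker Mki67 had a median of 0.337 RPKM and Top2a, the topoisomerase that untangles replicated chromosomes, 0.464 RPKM. Cdk1, the mitotic kinase, had a median of 0.275 RPKM and its partner Ccnb2 (cyclin B2) 0.322 RPKM. Ccnb1 (cyclin B1) was the lowest member, with a median of 0.0247 RPKM and 0 to 29 reads in a library. Cdc20, which activates the anaphase-promoting complex, had 0.363 RPKM, Foxm1, a transcription factor of mitotic genes, 0.362 RPKM, and the checkpoint kinase gene Bub1b 0.295 RPKM. Plk1 and Aurkb (mitotic kinases), Birc5 (survivin) and Bub1 had medians of 0.168, 0.149, 0.071 and 0.0559 RPKM. The 2 low members without a mitotic role were Cdkn2a, which encodes the inhibitor p16 and ARF, at 0.489 RPKM and Cdk6 at 0.228 RPKM.

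**Figure D1:**
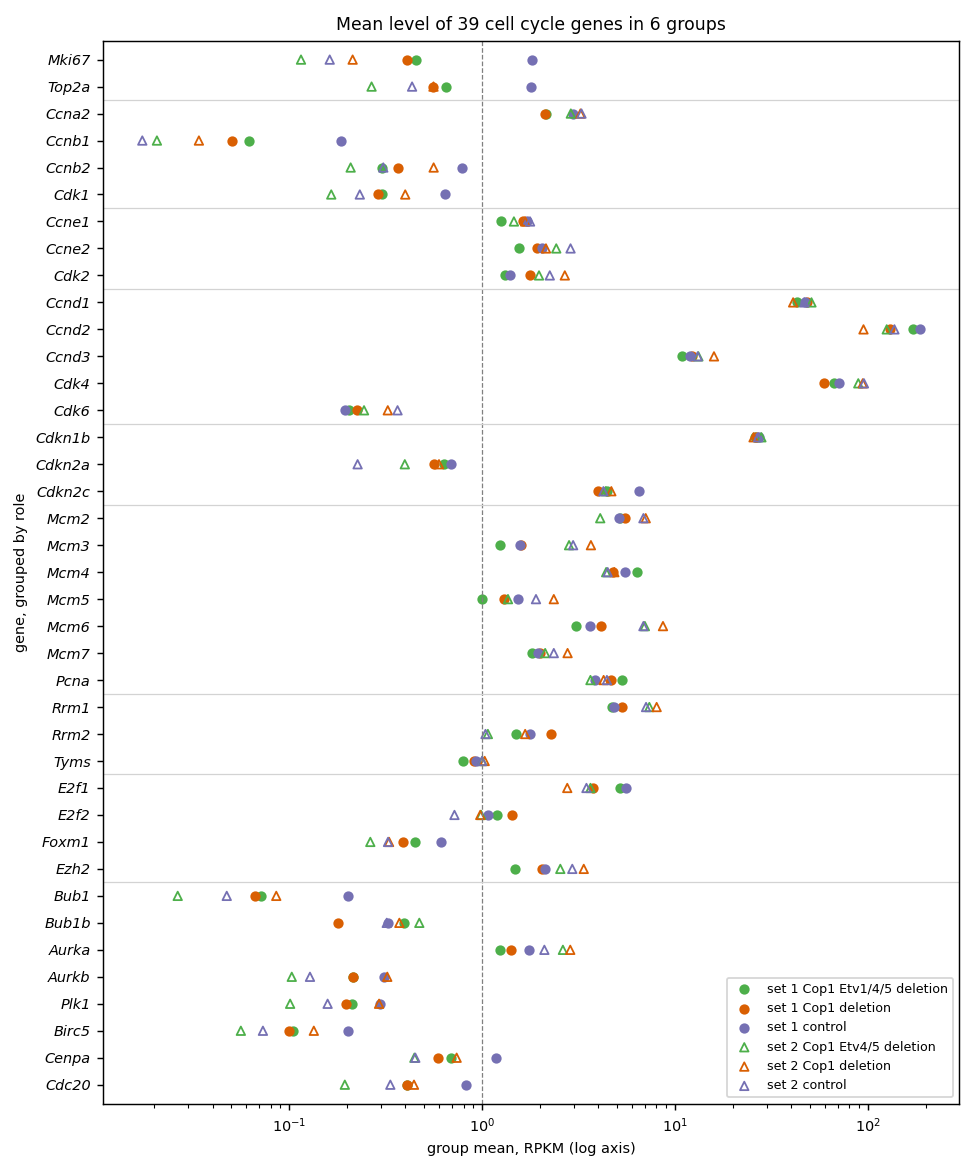
Mean RPKM of each of the 39 genes (rows, grouped by role) in each of the 6 groups of libraries, on a log axis, with filled circles for set 1, open triangles for set 2 and a dashed line at 1 RPKM. Ccnd2 and Cdk4 lie farthest to the right, and most mitotic genes lie left of the line in every group.

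The promoters of 4 members are printed to show the sequence elements that the mitotic and replication genes are known for: Cdk1, Ccnb2 and Cdc20 as low mitotic genes whose RNA was high in the same libraries, and Mcm6 as a helicase gene. These 4 were chosen after their values were seen. Each runs 5′ to 3′ from 250 bases before to 50 bases after the transcription start in GRCm38.p6, from RefSeq. Capitals mark the CHR (TTTGAA), the CCAAT box (CCAAT) and E2F motifs (TTTCCCGC, TTTGGCGC, TTTCGCGC or TTTGCCGC), all searched on both strands.
Cdk1 (chr10:69352863-69353162, minus strand): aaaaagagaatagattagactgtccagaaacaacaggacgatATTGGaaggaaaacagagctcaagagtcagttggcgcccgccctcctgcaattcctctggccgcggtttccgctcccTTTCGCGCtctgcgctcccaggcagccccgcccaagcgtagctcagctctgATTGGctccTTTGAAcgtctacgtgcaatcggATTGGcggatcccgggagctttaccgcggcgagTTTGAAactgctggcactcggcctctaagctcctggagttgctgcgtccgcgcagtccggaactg
Ccnb2 (chr9:70421505-70421804, minus strand): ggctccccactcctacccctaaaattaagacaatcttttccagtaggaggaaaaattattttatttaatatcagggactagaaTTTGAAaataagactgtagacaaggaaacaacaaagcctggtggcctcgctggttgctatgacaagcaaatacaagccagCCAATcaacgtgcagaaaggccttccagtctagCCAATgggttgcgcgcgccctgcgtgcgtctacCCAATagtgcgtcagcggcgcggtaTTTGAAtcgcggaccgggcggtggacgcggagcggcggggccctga
Cdc20 (chr4:118437294-118437593, minus strand): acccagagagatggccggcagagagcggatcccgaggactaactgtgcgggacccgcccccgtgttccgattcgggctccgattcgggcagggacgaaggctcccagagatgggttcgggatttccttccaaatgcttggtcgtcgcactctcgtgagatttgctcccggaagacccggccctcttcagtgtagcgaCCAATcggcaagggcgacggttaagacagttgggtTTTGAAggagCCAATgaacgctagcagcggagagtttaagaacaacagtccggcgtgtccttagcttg
Mcm6 (chr1:128359656-128359955, minus strand): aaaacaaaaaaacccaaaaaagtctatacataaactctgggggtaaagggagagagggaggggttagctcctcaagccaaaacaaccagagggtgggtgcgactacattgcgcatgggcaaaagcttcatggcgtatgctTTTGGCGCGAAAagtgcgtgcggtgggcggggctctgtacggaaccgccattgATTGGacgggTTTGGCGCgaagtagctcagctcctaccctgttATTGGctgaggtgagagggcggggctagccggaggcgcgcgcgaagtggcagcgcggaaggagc

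Cdk1 and Ccnb2 each hold 2 CHR elements and 3 CCAAT boxes, and Cdk1 holds an E2F match as well. In Mcm6, a TTTGGCGC match overlaps a TTTCGCGC match on the other strand. Promoters were at hand for 32 of the 39 members, and Ccna2, Ccne2, Ccnd1, Ccnd2, Mcm4, Aurkb and Foxm1 had no entry. Of 12 mitotic members with a promoter, 9 (75%) held a CHR, against 20.2% of all 27025 promoters of the same length, and 11 (91.7%) held a CCAAT box, against 41.1%. An E2F match lay in 4 of 5 MCM promoters (80%: Mcm3, Mcm5, Mcm6 and Mcm7), against 2.6% of all promoters. The ETS motif CCGGAAGT was found in 2 of 32 member promoters (6.25%), those of Tyms and Aurka, against 4.31% of all. A match to these letters is a description of the sequence and not evidence of binding.

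The 15 low members were highest in 1 library of each set. Their summed level was 4.54 to 5.96 RPKM in Etv1/4/5 deletion, 3.99 to 5.49 RPKM in Cop1 deletion and 5.76 to 17 RPKM in control libraries of set 1, where all 3 controls lay above all 3 Cop1 deletion libraries. In set 2 it was 2.59 to 3.43 RPKM in Etv4/5 deletion, 2.22 to 10.8 RPKM in Cop1 deletion and 2.6 to 4.84 RPKM in control libraries. The top of the range was 1 library in each set: the library labelled set 1 control replicate 2, at 3.35 times the median of the others of its set, and set 2 Cop1 deletion replicate 2, at 3.68 times.

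Mki67 had 0.438, 0.453, 0.347 and 0.587 RPKM in the 4 Etv1/4/5 deletion libraries, 0.332, 0.355 and 0.531 RPKM in the 3 Cop1 deletion libraries, and 0.649, 4.42 and 0.382 RPKM in the 3 control libraries of set 1. The value of 4.42 RPKM rests on 1289 reads and is that of the library labelled control replicate 2. All 9 other libraries of set 1 lay below 0.65 RPKM, and the 3 groups overlap. In set 2, Mki67 had 0.107, 0.16, 0.083 and 0.112 RPKM in Etv4/5 deletion, 0.0239, 0.43, 0.343 and 0.0562 RPKM in Cop1 deletion and 0.0879, 0.133, 0.176 and 0.252 RPKM in control libraries. The Cop1 deletion group held both the highest and the lowest Mki67 values of set 2, so its range spans that of both other groups.

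Top2a followed the same libraries. In set 1 it had 0.414, 0.619, 0.688 and 0.864 RPKM in Etv1/4/5 deletion, 0.477, 0.451 and 0.742 RPKM in Cop1 deletion and 0.982, 3.66 and 0.769 RPKM in control libraries, all of which lay above the Cop1 deletion libraries. In set 2 it had 0.249, 0.365, 0.177 and 0.278 RPKM in Etv4/5 deletion, 0.0347, 1.22, 0.837 and 0.138 RPKM in Cop1 deletion and 0.297, 0.303, 0.446 and 0.686 RPKM in control libraries. The peak of set 1 was again the library labelled control replicate 2, and the peaks of set 2 were Cop1 deletion replicates 2 and 3. Cdk1 had 0.0843, 0.815, 0.574 and 0.123 RPKM in the 4 Cop1 deletion libraries of set 2, in replicate order, against 0.19, 0.159, 0.281 and 0.299 RPKM in its controls. Ccnb2 had 0.313, 1.38, 0.36 and 0.19 RPKM in those Cop1 deletion libraries and 0.261, 0.265, 0.361 and 0.342 RPKM in those controls.

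Counted gene by gene, the library labelled set 1 control replicate 2 was the highest of set 1 for 13 of the 15 low members. Set 2 Cop1 deletion replicate 2 was the highest of set 2 for 12 of the 15, and replicate 3 for 2. The pattern was not limited to the members: of 50 other genes of mitosis, taken from a list chosen with earlier results known, 36 were highest in the library labelled set 1 control replicate 2 among the libraries of set 1, and 34 were highest in set 2 Cop1 deletion replicate 2 among those of set 2. The share of all genes that were highest in each of these 2 libraries is not given here. The immune markers differed between the 2 libraries. All 10 lymphocyte markers were highest in set 2 Cop1 deletion replicate 2, with Cd79b at 21.2 RPKM and Cd79a, both parts of the B cell receptor, at 10.6 RPKM, and its 16 macrophage and leukocyte markers summed to 582 RPKM, against 107 to 205 in set 2 libraries other than it and replicate 3, which had 353. The library labelled set 1 control replicate 2 had a lymphocyte sum of 2.7 RPKM, within the 2.36 to 7.51 of the rest of set 1, and a macrophage sum of 352 RPKM, within their 262 to 444. No lymphocyte marker was at 0 in every library, and 4 of the 10 had a median below 0.1 RPKM. The part of immune cells in the mitotic RNA of set 2 was not tested, and in bulk RNA, fewer cells of a type and less RNA per cell cannot be told apart.

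**Figure D2:**
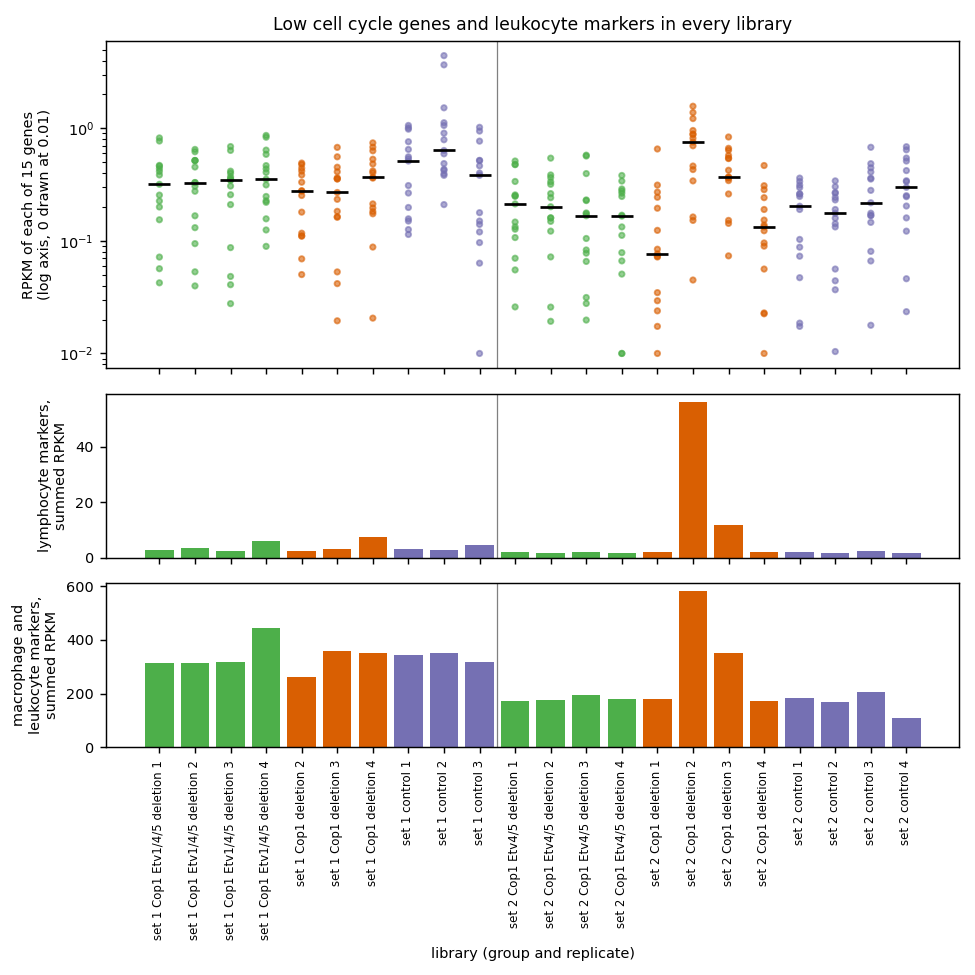
RPKM of the 15 low members in each of the 22 libraries (points, log axis, with 0 drawn at 0.01, and a bar at the median), above the summed RPKM of 10 lymphocyte markers and of 16 macrophage and leukocyte markers in the same libraries. The points rise in the library labelled set 1 control replicate 2, where the lymphocyte sum is 2.7 RPKM, and in set 2 Cop1 deletion replicates 2 and 3, where it is 56.1 and 11.8 RPKM.

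With no filter on low values the 15 low members could be tested as well. In that fit Cdkn2a rose in Cop1 deletion libraries of set 2 (log2 fold change 0.57, SE 0.15, limma adjusted p = 0.021), and no other low member was called in it. Without Cop1 deletion replicates 2 and 3 the value of Cdkn2a was 0.42 (adjusted p = 0.21). In set 1, 14 of the 15 low members had negative log2 fold changes between Cop1 deletion and control, with a median of -0.28. Of the 15, 7 had an unadjusted limma p below 0.05, where 20.3% of the 14342 genes of the filtered fit did. The median of those genes was -0.01 in set 1 and -0.02 in set 2. The low members are not among those genes, and shares over all genes of the unfiltered fit are not given here. The 15 values are not independent: 13 of these genes were highest of set 1 in the library labelled control replicate 2. Without that library, 13 of the 15 were negative, with a median of -0.16 and 0 at an unadjusted p below 0.05. In set 2, 14 of the 15 were positive, with a median of 0.09. Without Cop1 deletion replicates 2 and 3, 14 were negative, with a median of -0.12. With those 2 libraries left out and the library labelled set 1 control replicate 2 kept, limma called 3 low members in set 1. Lower in Cop1 deletion were Ccnb2 (-0.54, limma adjusted p = 0.028), Cdk1 (-0.53, 0.030) and Cenpa (-0.61, 0.026). With all libraries in the fit, these log2 fold changes were the same and the limma adjusted p was 0.291, 0.256 and 0.205. The share of all genes called in the reduced fit is not given here. Cdkn2a had 0.475, 0.335, 0.396 and 0.381 RPKM in Etv4/5 deletion libraries, 0.655, 0.879, 0.544 and 0.309 RPKM in Cop1 deletion libraries and 0.337, 0.19, 0.218 and 0.16 RPKM in control libraries of set 2. These are 37, 48, 29 and 18 reads in the Cop1 deletion libraries against 19, 9, 12 and 10 reads in the controls, and the 2 groups overlap by 1 library. The table does not separate the p16 and ARF transcripts of this locus.

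Among the 24 tested members, loss of Cop1 went with less RNA of E2f1, Ccnd2 and Ccne2 and with more of Rrm2 and E2f2. These 5 genes were called when the difference between Cop1 deletion and control was averaged over both sets (limma on log2(RPKM + 0.5), Benjamini-Hochberg adjustment over 14342 genes, adjusted p below 0.05). That is 2 of 24 members higher and 3 lower, where 20.1% of all genes tested were called, 9.57% higher and 10.5% lower. With every library scaled to the same total RPKM, 3 members were higher and 2 lower, and the share of all genes under that scaling is not given here. Without that scaling, the share of members called is close to that of all genes. The median log2 fold change of the 24 members was 0.04, against -0.02 for all genes. A log2 fold change on this scale understates the change of genes near 0.5 RPKM.

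In set 1 alone, 3 of 24 members were lower in Cop1 deletion and none was higher, where 8.33% of all genes were called, 4.29% lower and 4.04% higher. With equal total RPKM the split was 1 higher and 0 lower. That scaling moves the median of all genes by up to 0.2 on the log2 scale, and fold changes are to be read relative to it. The shares of all genes in this paragraph are those without that scaling. Shares under it are not given here or below. In set 2, 2 members were higher and 1 was lower, where 18.8% of all genes were called, 9.09% higher and 9.75% lower, and with equal total RPKM 0 were higher and 3 lower. The median log2 fold change of the members was -0.02 in set 1, against -0.01 for all genes, and 0.12 in set 2, against -0.02.

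E2f1, an activator of replication genes, was lower after Cop1 deletion. In set 1 it had 3.77, 3.37 and 4.12 RPKM in Cop1 deletion libraries, against 5.16, 5.98 and 5.58 RPKM in control libraries. Every Cop1 deletion library lay below every control of that set. In set 2 it had 2.08, 3.05, 2.34 and 3.59 RPKM in Cop1 deletion libraries, against 3.61, 4.05, 3.09 and 3.15 RPKM in controls, and these groups overlap. E2f1 fell in set 1 (log2 fold change -0.52, SE 0.14, limma adjusted p = 0.024) and on average over both sets (-0.41, SE 0.09, adjusted p = 0.0035), and in set 2 its log2 fold change was -0.30 (SE 0.12, adjusted p = 0.085). The difference between the sets was -0.22 (adjusted p = 0.57). Without the library labelled set 1 control replicate 2 the set 1 value was -0.47 (limma adjusted p = 0.079), without Cop1 deletion replicate 2 or 3 it was -0.52 (0.069) or -0.45 (0.11), and without control replicate 3 it was -0.51 (0.062). The average over both sets kept its call when any single library was left out.

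E2f2 moved the other way. It had 1.49, 1.15 and 1.65 RPKM in Cop1 deletion libraries and 1.24, 0.903 and 1.07 RPKM in control libraries of set 1. The set 2 values were 0.725, 1.19, 1.01 and 0.976 RPKM in Cop1 deletion libraries and 0.747, 0.683, 0.734 and 0.705 RPKM in controls. The groups overlap in both sets. Averaged over the sets E2f2 rose by 0.28 on the log2 scale (SE 0.08, limma adjusted p = 0.015). Without set 1 Cop1 deletion replicate 4 the value was 0.24 (adjusted p = 0.051), and without set 2 Cop1 deletion replicates 2 and 3 it was 0.22 (adjusted p = 0.058). Foxm1 was low and Ezh2 had log2 fold changes of -0.02 and 0.17 (adjusted p = 0.97 and 0.43) in sets 1 and 2.

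Of the D-type cyclins, Ccnd2 was lower. It had 132, 131 and 127 RPKM in Cop1 deletion libraries of set 1, against 184, 207 and 169 RPKM in control libraries, with no overlap. Set 2 gave 105, 61.1, 101 and 112 RPKM in Cop1 deletion libraries, against 161, 165, 143 and 78.8 RPKM in control libraries, where control replicate 4 lay below 3 of the Cop1 deletion libraries. Neither set passed the test alone (log2 fold changes -0.52, SE 0.22, limma adjusted p = 0.17, and -0.51, SE 0.19, adjusted p = 0.065), while the average over both did (-0.51, SE 0.14, adjusted p = 0.016). Without the library labelled set 1 control replicate 2 and set 2 Cop1 deletion replicates 2 and 3 together, the average was -0.36 (adjusted p = 0.087), and with only the Xist-positive libraries of set 2 it was -0.40 (adjusted p = 0.065). Averaged over the sets, 6 of 10 β cell markers fell and 1 rose, with a median log2 fold change of -0.71 over the 10, and their part in the E2f1 and Ccnd2 values was not tested.

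Ccnd3 and Cdk4 each passed in 1 set. Ccnd3 had 13.8, 18, 17.8 and 13.9 RPKM in Cop1 deletion and 14.2, 12.8, 13.5 and 11.8 RPKM in control libraries of set 2, and it rose by 0.26 on the log2 scale (SE 0.08, limma adjusted p = 0.026). The 2 highest values are replicates 2 and 3, the libraries with lymphocyte RNA and without Xist, and without them the change was 0.08 (adjusted p = 0.45). Leaving out replicate 2 alone gave 0.20 (0.081), replicate 3 alone 0.21 (0.076), control replicate 2 gave 0.25 (0.064) and control replicate 4 gave 0.22 (0.061). Cdk4 had 55.6, 58.4 and 63.3 RPKM in Cop1 deletion and 71.2, 63.8 and 75.8 RPKM in control libraries of set 1, without overlap though by less than 1 RPKM, and fell by 0.25 on the log2 scale (SE 0.07, limma adjusted p = 0.04). That call was lost in 10 of the fits that left out 1 library, without set 1 control replicate 3 the value was -0.19 (adjusted p = 0.17), and with equal total RPKM it was -0.11 (adjusted p = 0.36). Without the library labelled set 1 control replicate 2 Cdk4 was at -0.31 (adjusted p = 0.013), and its average over both sets, -0.13 (adjusted p = 0.053) with that library, was -0.17 (adjusted p = 0.019). In set 2 the Cdk4 level was 93.9 ± 8.1 RPKM in Cop1 deletion and 95.2 ± 3.1 RPKM in control libraries (SD, n = 4 each). Strand use is not given, and the gene models of Cdk4 and Ccnd3 overlap those of Tspan31 and Bysl, for which limma gave -0.06 (set 1, adjusted p = 0.60) and -0.06 (set 2, adjusted p = 0.54). Ccnd1 had log2 fold changes of 0.03 and -0.21 in sets 1 and 2 (adjusted p = 0.95 and 0.23).

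Ccne2, a partner of CDK2 at the start of S phase, was lower in set 2. It had 2.01, 2.08, 2.36 and 2.12 RPKM in Cop1 deletion libraries, against 2.86, 2.68, 2.77 and 3.17 RPKM in controls, and the groups do not overlap. Ccne2 fell by 0.35 on the log2 scale (SE 0.09, limma adjusted p = 0.011), and the call held when any single library was left out. In set 1 it had 2.12, 2 and 1.68 RPKM in Cop1 deletion and 2.49, 1.85 and 1.83 RPKM in control libraries, a log2 fold change of -0.07 (SE 0.10, adjusted p = 0.83) with overlap. The difference between the sets was 0.28 (adjusted p = 0.30), and the average over both was -0.21 (SE 0.07, adjusted p = 0.041), which 12 of the fits that left out 1 library did not call, with adjusted p up to 0.13. The gene model of Ccne2 overlaps that of Ints8, a subunit of the Integrator complex, and strand use in counting is not given, so their reads may be shared. Ints8 fell too in set 2, with 8.5 ± 0.81 RPKM in Cop1 deletion and 10.8 ± 0.49 RPKM in control libraries (SD, n = 4 each, log2 fold change -0.34, limma adjusted p = 0.0071). Ccne1 had log2 fold changes of -0.06 and -0.07 and Cdk2 of 0.27 and 0.26 in sets 1 and 2, with no call.

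Rrm2, the small subunit of ribonucleotide reductase and the one made in S phase, was higher. In set 1 it had 2.22, 1.95 and 2.65 RPKM in Cop1 deletion and 1.34, 2.47 and 1.49 RPKM in control libraries, where the 2.47 RPKM is the library labelled control replicate 2 and the groups overlap. In set 2 it had 1.26, 2.06, 2.01 and 1.33 RPKM in Cop1 deletion and 1.14, 0.891, 1.09 and 1.04 RPKM in control libraries, without overlap. Rrm2 rose by 0.47 in set 2 (SE 0.14, limma adjusted p = 0.026) and by 0.39 on average (SE 0.11, adjusted p = 0.014). Without set 2 Cop1 deletion replicates 2 and 3 these values were 0.22 (adjusted p = 0.38) and 0.27 (adjusted p = 0.069). The set 2 call was also lost without replicate 2 alone (0.38, adjusted p = 0.085), replicate 3 alone (0.39, 0.071) or control replicate 2 (0.42, 0.080), and the average without set 1 control replicate 1 (0.33, 0.051). The set 1 value was 0.32 (adjusted p = 0.30), and without the library labelled control replicate 2 it was 0.53 (adjusted p = 0.039). Rrm1 and Tyms, the other nucleotide synthesis genes, had log2 fold changes of 0.12 and -0.02 in set 1 and 0.17 and 0.04 in set 2, with no call.

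Cdkn2c, which encodes the CDK4 and CDK6 inhibitor p18, fell in set 1. It had 4.46, 4.21 and 3.28 RPKM in Cop1 deletion libraries, against 5.47, 8.15 and 5.91 RPKM in controls, a log2 fold change of -0.63 (SE 0.15, limma adjusted p = 0.013) without overlap. The highest value belongs to the library labelled control replicate 2, and without it the change was -0.47 (adjusted p = 0.071), while without Cop1 deletion replicate 4 it was -0.52 (adjusted p = 0.078). In set 2 Cdkn2c had 5.49, 4.68, 4.24 and 4.25 RPKM in Cop1 deletion and 4.22, 4.38, 5.06 and 3.32 RPKM in control libraries, a log2 fold change of 0.13 (SE 0.13, adjusted p = 0.53). It was the only member, of 24, whose Cop1 deletion effect differed between the sets by the test (set 1 minus set 2 -0.76, SE 0.20, limma adjusted p = 0.049), where 2.83% of all genes were called, 0.997% with a positive and 1.83% with a negative difference. Without the library labelled set 1 control replicate 2 that difference was -0.60 (adjusted p = 0.10), and 17 fits that left out 1 library, this one included, did not call it, with adjusted p up to 0.14. Cdkn1b did not change by the test in either set (-0.06 and -0.07, adjusted p = 0.71 and 0.41).

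No MCM gene and not Pcna was called between Cop1 deletion and control in either set. The log2 fold changes of these 7 genes ran from -0.17 to 0.26 in set 1 (median 0.04) and from -0.05 to 0.34 in set 2 (median 0.20). Their spread in set 2 lay in 3 libraries: summed over the 7 genes, Cop1 deletion replicates 2 and 3 had 41.6 and 35.9 RPKM and control replicate 4 had 41.3 RPKM, while the other 9 libraries had 23 to 29.2 RPKM. Mcm3, for example, had 2.94, 3.01, 2.9 and 2.44 RPKM in Etv4/5 deletion, 1.69, 5.72, 4.56 and 2.68 RPKM in Cop1 deletion and 2.18, 2.04, 2.74 and 4.89 RPKM in control libraries. Control replicate 4 had a lymphocyte sum of 1.84 RPKM and a sum of the 15 low members of 4.84 RPKM. Of the mitotic genes high enough to test, Ccna2 had log2 fold changes of -0.39 (SE 0.14, limma adjusted p = 0.10) in set 1, or -0.23 (adjusted p = 0.39) without the library labelled control replicate 2, and -0.04 (adjusted p = 0.86) in set 2, and Aurka of -0.23 (adjusted p = 0.54) and 0.34 (adjusted p = 0.12). Both overlap other gene models, Ccna2 that of Exosc9, which had a median of 19.9 RPKM, and Aurka that of Cstf1, at 10.9 RPKM.

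**Figure D3:**
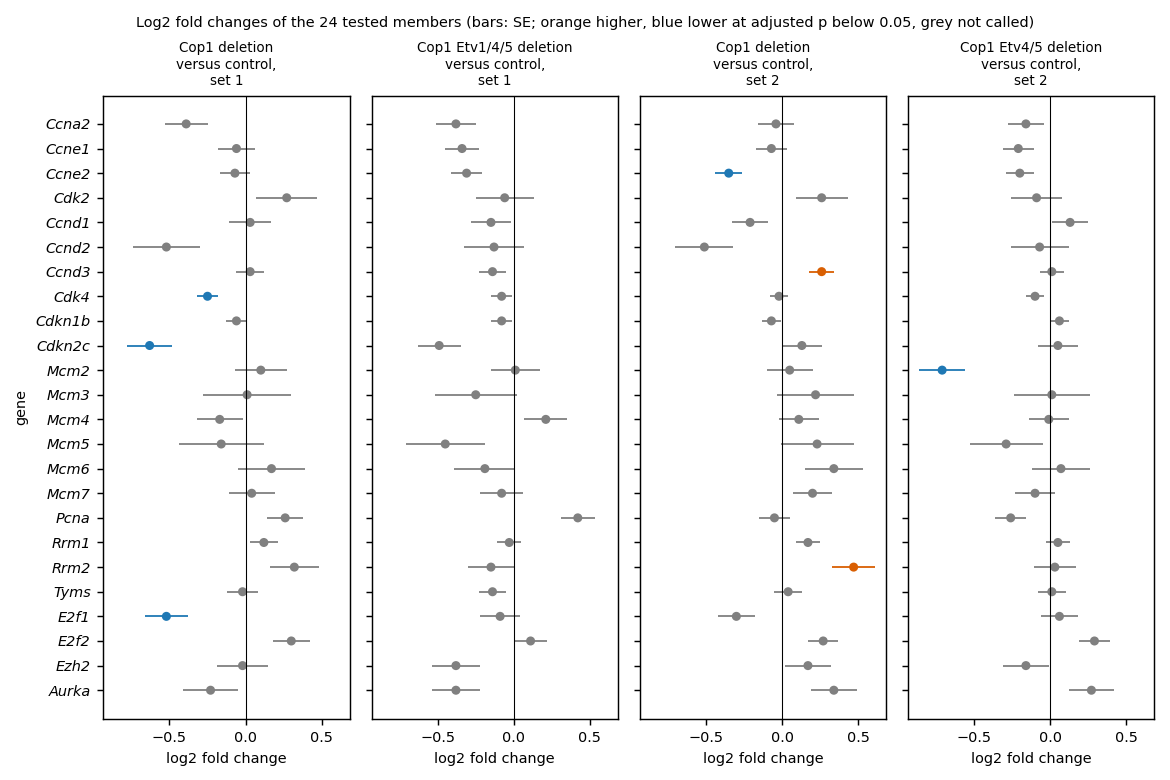
Log2 fold change with its SE (bars) of the 24 tested members in 4 comparisons of a deletion group with the control of its set, from limma on log2(RPKM + 0.5), with called genes in colour. Coloured points are Cdkn2c, E2f1 and Cdk4 for Cop1 deletion in set 1, Ccne2, Ccnd3 and Rrm2 for Cop1 deletion in set 2, and Mcm2 for Etv4/5 deletion, with none for Etv1/4/5 deletion.

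Adding the Etv1/4/5 deletion called no member by limma, against Cop1 deletion or against control. Against Cop1 deletion, 6.34% of all genes were called (3.65% higher, 2.69% lower), and among the members 7 of 24 had an unadjusted p below 0.05, as did 18.7% of all genes, while limma-voom on whole reads recovered from the table called 0. Against control, 1.32% of all genes were called (0.899% higher, 0.418% lower), 7 of 24 members had an unadjusted p below 0.05, as did 10.1% of all genes, and limma-voom called 0. With equal total RPKM, 4 members were lower than in Cop1 deletion and 0 were higher, and none was called against control. The shares of all genes under that scaling are not given here, so this split cannot be read as particular to the members. Comparisons of the Etv deletion groups with Cop1 deletion and those of Cop1 deletion with control share the Cop1 deletion libraries, so their values are given side by side without a test of their relation.

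E2f1 had 4.93, 5.36, 5.7 and 4.78 RPKM in Etv1/4/5 deletion libraries, above all 3 Cop1 deletion libraries (3.77, 3.37 and 4.12 RPKM), a log2 fold change of 0.42 (SE 0.13, limma adjusted p = 0.058). Against control it was -0.09 (SE 0.13, adjusted p = 0.96), with overlap. Rrm2 had 1.46, 1.42, 1.45 and 1.67 RPKM, below all 3 Cop1 deletion libraries (2.22, 1.95 and 2.65 RPKM), at -0.47 (SE 0.15, adjusted p = 0.081), and -0.15 against control (adjusted p = 0.91). Ccnd2 had 167, 177, 167 and 169 RPKM, above the 132, 131 and 127 RPKM of Cop1 deletion, with a log2 fold change of 0.39 (SE 0.20, adjusted p = 0.33), and -0.13 against control (adjusted p = 0.97). These 3 genes missed the threshold in both comparisons, though without the library labelled set 1 control replicate 2 Rrm2 was called against Cop1 deletion (-0.47, limma adjusted p = 0.032).

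Cdkn2c had 4.7, 5.17, 3.72 and 4.25 RPKM in Etv1/4/5 deletion libraries, 0.15 above Cop1 deletion on the log2 scale (limma adjusted p = 0.69) and -0.49 against control (SE 0.14, adjusted p = 0.13). Pcna had the smallest adjusted p of the members against control. It had 4.75, 4.83, 5.44 and 6.11 RPKM in Etv1/4/5 deletion, 5, 4.27 and 4.74 RPKM in Cop1 deletion and 3.56, 4.25 and 3.66 RPKM in control libraries, a log2 fold change against control of 0.42 (SE 0.11, limma adjusted p = 0.077). Its Etv1/4/5 deletion and control values do not overlap. Without the library labelled set 1 control replicate 2, limma called 1 member between Etv1/4/5 deletion and control, which is Pcna (0.49, adjusted p = 0.044). The share of all genes called in that fit is not given here.

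Adding the Etv4/5 deletion called Mcm2, a helicase subunit, against both other groups of set 2. It had 3.63, 6.28, 3.41 and 3.02 RPKM in Etv4/5 deletion libraries, 6.97, 7.43, 6.94 and 6.85 RPKM in Cop1 deletion libraries and 6.25, 6.31, 5.89 and 8.96 RPKM in control libraries. Replicates 1, 3 and 4 of Etv4/5 deletion lay below all other libraries of the set, while replicate 2 lay within the control range. Mcm2 fell against Cop1 deletion (log2 fold change -0.77, SE 0.15, limma adjusted p = 0.021) and against control (-0.71, SE 0.15, adjusted p = 0.0043). It was the only member called in each comparison, or 1 of 24, where 1.73% of all genes were called against Cop1 deletion, 0.676% higher and 1.05% lower, and 8.74% against control, 4.99% higher and 3.75% lower. With equal total RPKM both counts were again 0 higher and 1 lower. In set 1 Mcm2 had 5.15 ± 0.26 RPKM in Etv1/4/5 deletion (SD, n = 4), 5.51 ± 0.33 in Cop1 deletion and 5.12 ± 0.27 in control libraries (SD, n = 3 each).

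The call against Cop1 deletion was lost without Etv4/5 deletion replicate 3 (log2 fold change -0.71, limma adjusted p = 0.078) or replicate 4 (-0.66, 0.079) and without Cop1 deletion replicates 2 and 3 (-0.74, 0.10). With only the libraries of set 2 that contain Xist RNA, Mcm2 was at -0.60 against Cop1 deletion (adjusted p = 0.33) and -0.57 against control (adjusted p = 0.088). The other 6 genes of the helicase and clamp were not called, although all 7 had negative log2 fold changes against Cop1 deletion, from -0.77 to -0.12. Against control the 7 ran from -0.71 to 0.07, with a median of -0.10. Acinar markers moved with the first of these comparisons: all 12 had an unadjusted p below 0.05 (1 adjusted), with a median log2 fold change of -1.91 and sums of 962 to 3960 RPKM in Etv4/5 deletion against 3710 to 21200 in Cop1 deletion libraries. Their part in the Mcm2 values was not tested. The promoter of Mcm2 is printed as the member called in both comparisons, with the same capitals as above.
Mcm2 (chr6:88898731-88899030, minus strand): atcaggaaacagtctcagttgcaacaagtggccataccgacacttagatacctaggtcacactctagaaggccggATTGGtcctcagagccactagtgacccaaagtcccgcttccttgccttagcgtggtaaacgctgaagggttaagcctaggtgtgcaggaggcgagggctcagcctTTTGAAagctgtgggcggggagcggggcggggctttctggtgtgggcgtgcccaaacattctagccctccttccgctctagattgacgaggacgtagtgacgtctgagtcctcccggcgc
It holds 1 CHR and 1 CCAAT box, and no match to the 4 E2F motifs lies in this window.

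Other members in set 2 stayed above the threshold for Etv4/5 deletion. E2f1 had 3.25, 3.89, 3.62 and 3.8 RPKM in Etv4/5 deletion libraries, with log2 fold changes of 0.37 against Cop1 deletion (SE 0.12, limma adjusted p = 0.11) and 0.06 against control (adjusted p = 0.82). Rrm2 had 1.09, 1.13, 1.02 and 1.03 RPKM, at -0.44 against Cop1 deletion (SE 0.14, adjusted p = 0.10) and 0.03 against control (adjusted p = 0.95). Ccnd2 had 115, 125, 128 and 133 RPKM, at 0.43 (SE 0.19, adjusted p = 0.18) and -0.07 (adjusted p = 0.88). The Etv4/5 deletion values of Rrm2 lay below, and those of Ccnd2 above, all 4 Cop1 deletion libraries, and both overlapped the controls. Ccne2 had 2.36, 2.44, 2.5 and 2.38 RPKM, between the other groups, at 0.15 against Cop1 deletion (adjusted p = 0.33) and -0.20 against control (SE 0.09, adjusted p = 0.19). E2f2 had 0.935, 0.93, 1.03 and 1.05 RPKM, above all 4 controls, at 0.29 (SE 0.10, adjusted p = 0.093) and at 0.02 against Cop1 deletion (adjusted p = 0.93).

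**Figure D4:**
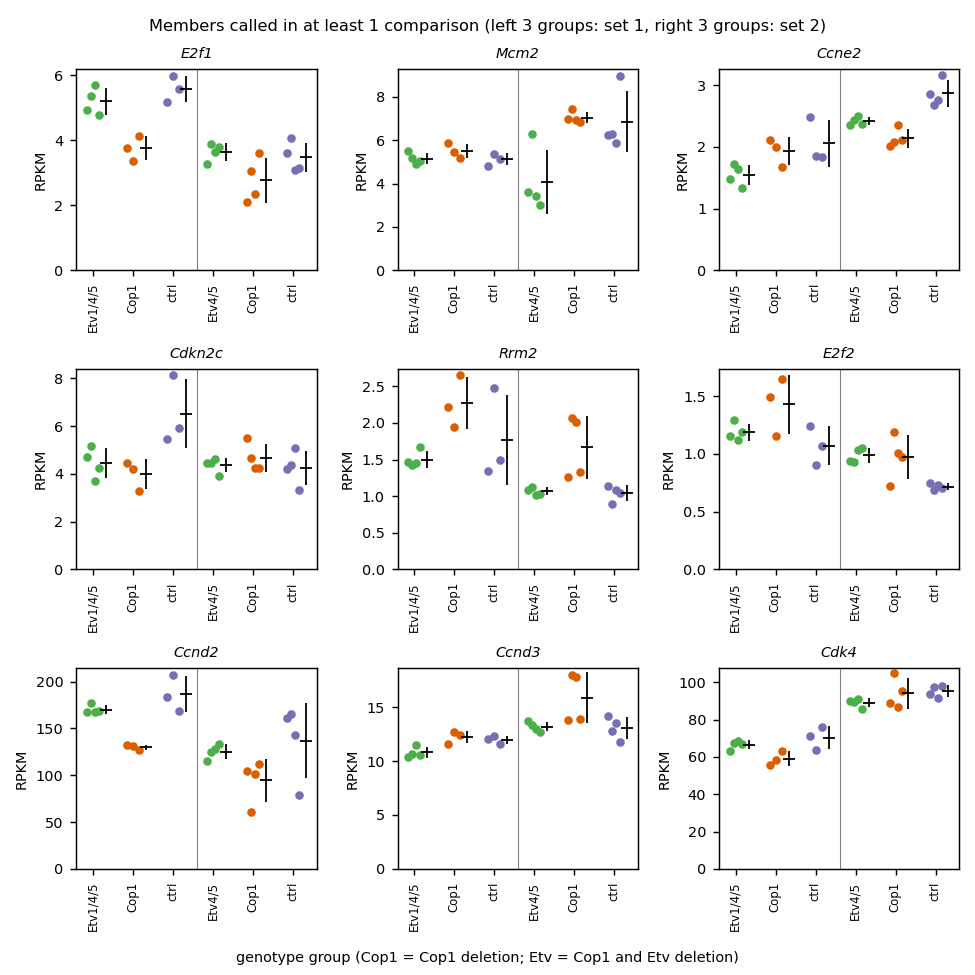
RPKM per library (points) with mean and SD (bars) in the 6 groups for the 9 members called in a comparison within a set or averaged over both sets: E2f1, Mcm2, Ccne2, Cdkn2c, Rrm2, E2f2, Ccnd2, Ccnd3 and Cdk4. The means of E2f1 and Ccnd2 are lowest in Cop1 deletion in both sets, and 3 of 4 Mcm2 values in Etv4/5 deletion lie between 3.02 and 3.63 RPKM, below those of all other libraries of set 2.

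Other genes of the same processes were read from 4 further lists. Of 36 other S-phase and replication genes, 25 were tested. Between Cop1 deletion and control, 1 rose and 1 fell in set 1, or 2 of 25 where 8.33% of all genes were called, and 1 rose and 1 fell in set 2, where 18.8% were called, with list medians of 0 and 0.15 on the log2 scale, against -0.01 and -0.02 for all genes. Orc6, a subunit of the origin recognition complex, fell in both sets. It had 10.6 ± 0.29 RPKM in Etv1/4/5 deletion (SD, n = 4), 6.43 ± 0.91 in Cop1 deletion and 13.4 ± 1.5 in control libraries of set 1 (SD, n = 3 each). Orc6 in set 2 had 6.62 ± 0.79 RPKM in Etv4/5 deletion, 6.01 ± 0.78 in Cop1 deletion and 8.71 ± 1.4 in control libraries (SD, n = 4 each). Its log2 fold changes were -1.0 (SE 0.13, limma adjusted p = 4.4e-05) and -0.50 (SE 0.11, adjusted p = 0.0041) for Cop1 deletion against control, 0.69 (SE 0.12, adjusted p = 0.0012) for Etv1/4/5 deletion against Cop1 deletion and -0.37 (SE 0.11, adjusted p = 0.045) for Etv4/5 deletion against control. Orc6 lies within 2000 bases of Vps35, which had a median of 84.3 RPKM. Pola1, of DNA polymerase alpha, rose by 0.34 in Cop1 deletion of set 1 (limma adjusted p = 0.048).

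Of 50 other genes of mitosis, 18 were high enough to test. Between Cop1 deletion and control, 1 rose and 2 fell in set 1 and 3 rose and 0 fell in set 2, beside 8.33% and 18.8% of all genes. The called genes include 2 subunits of the same complex, the NDC80 complex of the kinetochore, with opposite signs. These are Spc24 and Spc25, whose levels differ widely, and the source of the Spc25 reads was not tested. Spc24 had 2.26 ± 0.15 RPKM in Cop1 deletion and 1.18 ± 0.18 RPKM in control libraries of set 1 (SD, n = 3 each). Spc24 in set 2 had 3.4 ± 0.76 RPKM in Cop1 deletion and 1.37 ± 0.3 RPKM in control libraries (SD, n = 4 each). Spc24 rose in both sets, with log2 fold changes of 0.72 (SE 0.17, limma adjusted p = 0.0095) and 1.06 (SE 0.14, adjusted p = 5.3e-05). It was higher in Etv4/5 deletion too, at 3.13 ± 0.61 RPKM (SD, n = 4; 0.96 against control, adjusted p = 0.00026).

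Spc25 fell in set 1, at 30.1 ± 2.5 RPKM in Cop1 deletion against 89 ± 21 RPKM in control libraries (SD, n = 3 each; log2 fold change -1.52, SE 0.23, limma adjusted p = 0.00024). Etv1/4/5 deletion libraries had 84.4 ± 4.9 RPKM (SD, n = 4), 1.47 above Cop1 deletion on the log2 scale (SE 0.21, adjusted p = 0.00026). In set 2 Spc25 had 75.8 ± 7.1 RPKM in Etv4/5 deletion, 71.7 ± 25 RPKM in Cop1 deletion and 90.4 ± 20 RPKM in control libraries (SD, n = 4 each), and its Cop1 deletion effect differed between the sets by -1.14 (SE 0.30, adjusted p = 0.048), or by -1.01 (adjusted p = 0.098) without the library labelled set 1 control replicate 2. Its RPKM was far above that of Ndc80, the subunit that names the complex, which had 1.36 ± 0.17 RPKM in Etv4/5 deletion, 0.906 ± 0.24 RPKM in Cop1 deletion and 0.731 ± 0.098 RPKM in control libraries of set 2 (SD, n = 4 each). Ndc80 rose in Etv4/5 deletion against control by 0.59 (SE 0.17, limma adjusted p = 0.030), and with only the Xist-positive libraries the value was 0.62 (adjusted p = 0.069). Racgap1, a cytokinesis gene, fell by 0.38 in Cop1 deletion of set 1 (limma adjusted p = 0.014), and with equal total RPKM the value was -0.26 (adjusted p = 0.098).

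Of 29 other CDK inhibitors and genes of the retinoblastoma and E2F families, 25 were tested. In set 1 limma called 0 between Cop1 deletion and control, with 2 at an unadjusted p below 0.05, where 20.3% of all genes were, and in set 2 it called 4 higher and 1 lower, beside 18.8% of all genes. Cdkn2b, which encodes the inhibitor p15 beside Cdkn2a, had 13.5 ± 0.33 RPKM in Etv4/5 deletion, 16.7 ± 6 RPKM in Cop1 deletion and 7.68 ± 1.3 RPKM in control libraries of set 2 (SD, n = 4 each). It rose by 1.03 in Cop1 deletion (SE 0.15, limma adjusted p = 0.00011) and by 0.79 in Etv4/5 deletion (SE 0.15, adjusted p = 0.0022) against control. In set 1 it had 14.3 ± 0.73 RPKM in Etv1/4/5 deletion (SD, n = 4), 9.83 ± 0.43 in Cop1 deletion and 11.7 ± 1.2 in control libraries (SD, n = 3 each), and the Cop1 deletion effect differed between the sets by -1.27 (SE 0.23, adjusted p = 0.0047). Cdkn1c (p57) rose by 0.42 (limma adjusted p = 0.0097) and Ccng2 (cyclin G2) by 0.77 (adjusted p = 0.0092) in Cop1 deletion of set 2, and E2f4, a repressive E2F, fell by 0.16 (adjusted p = 0.026). Without Cop1 deletion replicates 2 and 3 these 3 values were 0.35 (adjusted p = 0.088), 0.68 (0.069) and -0.15 (0.089). Cdkn1a (p21) was higher in Etv1/4/5 deletion than in Cop1 deletion by 0.75 (SE 0.22, limma adjusted p = 0.045), at 66.5 ± 4.8 RPKM (SD, n = 4) against 39.7 ± 7.7 RPKM (SD, n = 3), and by 0.60 (adjusted p = 0.13) with equal total RPKM, while E2f6 was lower by 0.42 (adjusted p = 0.0093).

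Polycomb proteins are known to keep the Cdkn2a locus silent in β cells, and menin to keep Cdkn1b and Cdkn2c on. All 13 polycomb and menin partner genes were tested, and between Cop1 deletion and control 1 fell in set 1 and 1 rose in set 2, beside 8.33% and 18.8% of all genes. Cbx8, a reader of the polycomb mark, fell by 0.58 in set 1 (SE 0.15, limma adjusted p = 0.017), and Cbx7, a relative, rose by 0.39 in set 2 (SE 0.06, adjusted p = 0.00021). Ezh1, a relative of Ezh2, rose by 0.53 in Etv1/4/5 deletion against control (SE 0.08, adjusted p = 0.0012). Ductal markers differed between the groups of set 2. Summed over 10 of them, its libraries had 971 to 1050 RPKM in Etv4/5 deletion, 1290 to 1590 in Cop1 deletion and 600 to 731 in control. Over 12 acinar markers the sums were 962 to 3960 RPKM in Etv4/5 deletion, 3710 to 21200 in Cop1 deletion and 767 to 10800 in control. These acinar ranges overlap, and limma called 0 of the 12 in either deletion group of set 2 against control. The part of ductal and acinar markers in the set 2 values was not tested. That of the differing numbers of Xist-positive libraries was not tested beyond the fits with Xist-positive libraries alone.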

How the data were processed

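The deposited values are RPKM per gene and library, made by the authors on mm9 per the submitters' processing notes. Not given in the sources used here were aligner, read counter, annotation and use of strand. In all, the table has 28059 rows, named by NCBI Gene number, and 24 columns of libraries. Islets were cultured and picked by hand, and RNA was cleaned on a Qiagen column with DNase, per the labels' protocols. Columns were assigned by the sample number in the title, which placed 22. The other 2 columns were not used, because the number of 1 is shared by 2 titles and that of the other by none. Symbols and promoters came from GRCm38.p6 RefSeq (24998 genes matched, 3061 without a symbol), so promoter coordinates are not those of the reads.

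Depth was read from the steps of the RPKM values: for 21996 of 22187 genes (99.1%) above 0 in at least 3 libraries, values were whole multiples of 1 read within 0.0001, giving 10800000 to 17300000 reads per library in set 1 and 27000000 to 34400000 in set 2. Set 1 therefore measures low genes with a coarser step.

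The 14342 genes that reached 1 RPKM in 4 or more libraries were tested on log2(RPKM + 0.5) with limma 3.58.1 in R 4.3.3 (with data.table, version 1.17.8), with a mean-variance trend, robust variance, 1 mean for each of the 6 groups and 2-sided contrasts. Adjusted p-values are Benjamini-Hochberg over all genes, with a threshold of 0.05. On simulated libraries of the same sizes with 14342 genes, Cop1 deletion was compared with control. In set 1 the test called 59% of genes changed 1.5-fold and 87% of those changed 2-fold. In set 2 it called 67% and 92%. Errors were drawn separately for each gene, so deviations shared by many genes of a library were not simulated. The changed genes were drawn at random from all those tested, so the rates are not specific to the members. Alternatives covered the pseudocount, filter, scaling, fit, library weights, a 1.5-fold minimum, each library in turn, groups of libraries that stood apart, Xist-positive libraries of set 2, and limma-voom on the recovered reads.

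The members, the other gene lists and the tests were chosen with earlier results of these data known. All 39 members may be named. Values in every library are given for called members, from each other list up to 4 called genes with the smallest adjusted p are named, and promoters of up to 6 called members may be shown, of which only that of Mcm2 is. The other 4 promoters, the values per library of Mki67, Top2a, Cdk1, Ccnb2, Cdkn2a, Mcm3 and Pcna, and Cd79a, Cd79b and genes beside or overlapping a named gene were chosen after values were seen. A called gene of the replication list is not reported here by name.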

Additional observations from a re-analysis of the deposited data

Results flagged for a closer look

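Among 156 groups of 4 libraries, taken over the 39 genes, 9 had 1 library far from the other 3, and chance alone flags about 1 group in 20. In set 2 Cop1 deletion, replicate 2 had 4.45 RPKM of Ccna2, against 2.69, 2.87 and 2.9 RPKM in the others, and 1.38 RPKM of Ccnb2, against 0.313, 0.36 and 0.19 RPKM. That library also had the highest level of all 10 lymphocyte markers, and their part in these values was not tested. In set 2 control, replicate 4 had 3.71 RPKM of Cdk2, against 1.8, 1.6 and 1.85 RPKM, and 8.96 RPKM of Mcm2, against 6.25, 6.31 and 5.89 RPKM. In set 2 Etv4/5 deletion, replicate 1 had 0.337 RPKM of Ccnb2, against 0.16, 0.167 and 0.169 RPKM, and 2.92 RPKM of Ezh2, against 2.39, 2.39 and 2.47 RPKM. Replicate 3 of that group had 56.8 RPKM of Ccnd1, against 48.4, 48.8 and 49.7 RPKM. In set 1 Etv1/4/5 deletion, replicate 4 had 0.125 RPKM of Ccnb1, against 0.0424, 0.0398 and 0.0408 RPKM, and 2.08 RPKM of Mcm7, against 1.7, 1.71 and 1.75 RPKM.

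The Cop1 deletion effect on Cdkn2c differed between the sets by a test of the difference itself (set 1 minus set 2 -0.76 on the log2 scale, limma adjusted p = 0.049). It was -0.63 in set 1 and 0.13 in set 2, and the difference was -0.60 (adjusted p = 0.10) without the library labelled set 1 control replicate 2.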

How the results depend on the processing

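No log2 fold change of a called member changed sign under any alternative tried. Counts of called members moved by more than 1.5 times as follows. For Cop1 deletion against control in set 1 (3 called), equal total RPKM, a 1.5-fold minimum and limma-voom each gave 1, library weights gave 9, and leaving out 1 library gave 1 to 4. In set 2 (3 called), library weights gave 7, a 1.5-fold minimum 0, Xist-positive libraries 1, and leaving out 1 library 1 to 6. For the average over both sets (5 called), at least 1 RPKM in every library gave 3, library weights 10, a 1.5-fold minimum 0, Xist-positive libraries 3, and leaving out 1 library 3 to 7. For Etv1/4/5 deletion against Cop1 deletion (0 called), equal total RPKM gave 4, each set fitted alone 2, library weights 9, leaving out set 2 Cop1 deletion replicates 2 and 3 gave 2, leaving out these and the library labelled set 1 control replicate 2 gave 4, Xist-positive libraries 1, and leaving out 1 library 0 to 2. Against control (0 called), library weights gave 8, leaving out those 3 libraries 1, and leaving out 1 library 0 to 1. For Etv4/5 deletion against Cop1 deletion (1 called), each set fitted alone, Xist-positive libraries and leaving out the 2 or the 3 libraries each gave 0, library weights gave 5, and leaving out 1 library 0 to 3. Against control (1 called), each set fitted alone and Xist-positive libraries gave 0, library weights 3, leaving out the 2 or the 3 libraries and limma-voom each gave 2, and leaving out 1 library gave 1. For the difference between sets (1 called), a pseudocount of 0.1, no filter, equal total RPKM, trimmed mean of M values, no mean-variance trend, leaving out the 2 or the 3 libraries, Xist-positive libraries and limma-voom each gave 0, library weights gave 4, and leaving out 1 library 0 to 1. Over all genes limma-voom called 801 in set 1 and 2880 in set 2 for Cop1 deletion against control, and 588, 102, 353 and 1374 for the 4 Etv deletion comparisons in the order above. Shares of all genes called under the other alternatives are not given here, so these member counts cannot be read as particular to the members. The cause of the shifts in member counts was not tested. Limma-voom on recovered reads, the joint removal of the 3 libraries, both for single genes, and the fits of low members and of genes of the other lists without these libraries were chosen after seeing the data. A library left out of a group of 3 leaves 2, which are assumed to vary like the other groups. Of the called members, E2f1 averaged over both sets was called in 35 of 36 alternatives and Ccne2 in set 2 in 36 of 37, each missing only the 1.5-fold minimum, while Cdk4 in set 1 was called in 22 of 37 and Ccnd3 in set 2 in 26 of 37. No paired analysis was possible because the labels give no replicate numbers that groups share. Depth limits the low members most: Cdkn2a, called without a filter in set 2, had 9 to 48 reads in the libraries compared.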
